A study of Homo sapiens with 6 samples.

Results

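The glutathione peroxidase family was taken as the 8 genes GPX1 to GPX8, found by symbol in RefSeq's gene table (GRCh38.p14, the hg38 build) with its 19974 protein-coding genes, and every listed NRF2 peak with its summit inside one of them or within 50 kb of either end was counted. Of 19331 regions in which peaks of the libraries were joined, 6 lay in these windows, with 8 peaks in all. The assay was ChIP-seq, in which DNA bound by NRF2 is pulled down with an antibody and sequenced, and the cells were HMC3, a human microglial line. Of the 4 libraries, 2 came from vehicle-treated cells and 2 from cells exposed to CDDO-Im, a synthetic triterpenoid, at 30 nM for 4 h. The labels repeat 1 treatment text for vehicle and CDDO-Im alike, so the groups rest on the sample titles, and the 2 input samples were not analysed here. Nothing in the labels says that libraries of a group came from separate cultures, so their spread may be technical. The peak lists hold no expression values, so the microglial label could not be set against marker genes.

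Glutathione peroxidases reduce hydrogen peroxide and organic hydroperoxides, mostly with glutathione as the electron donor. In humans GPX1, GPX2, GPX3, GPX4 and GPX6 carry selenocysteine at the active site, and GPX5, GPX7 and GPX8 carry cysteine. NRF2 is held low by KEAP1 until electrophiles such as CDDO-Im modify KEAP1, and it then binds antioxidant response elements as a dimer with a small MAF protein. GPX2 is a known NRF2 target with such an element in its promoter.

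NRF2 peaks were listed near 4 of the 8 genes, and only GPX4 had a region shared by both CDDO-Im libraries. GPX2 and GPX3 had peaks only in CDDO-Im lists, and GPX8 only in the list of vehicle 2. GPX1, GPX5, GPX6 and GPX7 had no listed peak within 50 kb. Vehicle 1 had a peak near 0 members, where 6.66% of all protein-coding genes had one. Vehicle 2 had one near 2 members (GPX4 and GPX8), where the share of all genes was 7.53%. CDDO-Im 1 had one near 2 members (GPX2 and GPX4), against 16.4% of all genes, and CDDO-Im 2 near 3 (GPX2, GPX3 and GPX4), against 23.0%. Any library had a peak near 31.5% of all genes. A region of both CDDO-Im libraries lay near 1 member, or 12.5%, against 11.6% of all genes, so the members' share was close to that of genes at large. A region of both CDDO-Im libraries and 1 vehicle library, as at GPX4, lay near 2.90% of all genes. A region of both vehicle libraries lay near 0 members, against 1.81% of all genes.

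The windows of these genes are short, because the genes are. The members span 1.18 to 12.5 kb with a median of 6.90 kb, where the median protein-coding gene spans 24.2 kb. Among the 6643 protein-coding genes no longer than the longest member, 22.1% had a peak of any library and 7.48% a region of both CDDO-Im libraries. Without CDDO-Im 1, where the list of CDDO-Im 2 alone stands for the group, the count of members with a CDDO-Im region was 3. Without CDDO-Im 2 it was 2. This rule is looser, and by it 23.0% and 16.4% of all protein-coding genes had one in the same order.

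The windows of the 8 genes held 0 and 2 peaks in vehicle 1 and 2, and 2 and 4 peaks in CDDO-Im 1 and 2. Vehicle 2 and CDDO-Im 1 thus had the same number, and the groups touch. On the log2(number + 1) scale the CDDO-Im mean lay 1.16 above the vehicle mean (exact permutation p = 0.667, two-sided, n = 2 and 2), and the smallest p this design allows is 0.333. Without vehicle 1 the difference was 0.37, without vehicle 2 it was 1.95, without CDDO-Im 1 it was 1.53 and without CDDO-Im 2 it was 0.79. It was 0.50 with windows of 10 kb and 0.66 with windows of 100 kb. CDDO-Im 2 also had the longest list of the 4, with 12244 peaks on chromosomes 1 to 22 and X against 4098, 7308 and 3882 in vehicle 1, vehicle 2 and CDDO-Im 1, and its part in the count was not tested.

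**Figure D1:**
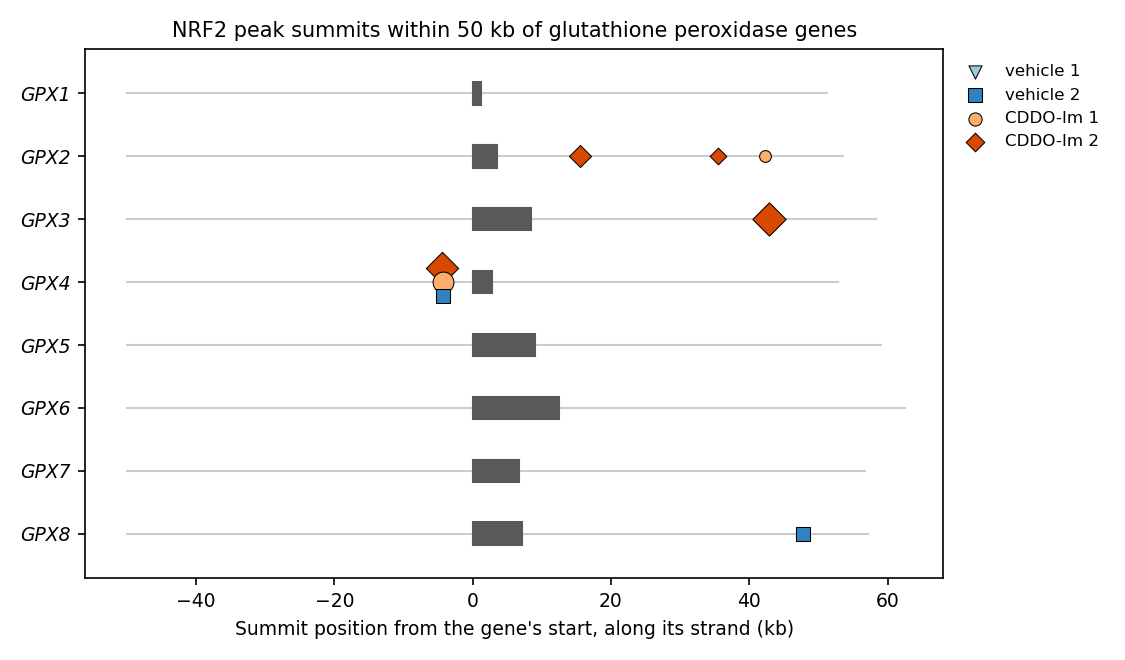
Summits of the listed NRF2 peaks (points, area rising with tags) along the window of each glutathione peroxidase gene (grey line; dark box, the gene), by position in kb from the gene's start along its strand. The GPX4 peaks of 3 libraries lie together 4.3 to 4.37 kb before the gene, and the other peaks lie past the gene's far end, in 1 library each.

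GPX4 encodes the enzyme that reduces phospholipid hydroperoxides in membranes and restrains ferroptosis, the iron-dependent form of cell death. It lies on chromosome 19 from 1103994 to 1106779 on the plus strand. Its region (chr19:1099463-1099818) was listed in vehicle 2 and in both CDDO-Im libraries, and the 3 summits lay within 71 bp of each other, 4300, 4345 and 4371 bp before the start of the gene. The region lay outside any protein-coding gene. It sits between GPX4 and POLR2E, a subunit gene of RNA polymerase II on the minus strand, whose start was 4248 bp from the CDDO-Im 2 summit. Distance alone does not assign the region to GPX4, as 5 protein-coding genes lay within 50 kb of it, SBNO2, ARHGAP45 and ABCA7 among them.

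The number of tags at each summit, that is of sequenced fragments stacked there, was worked back from the fold enrichment and −log10 p that the authors deposited. At the GPX4 region vehicle 2 held 8 tags (exact 95% Poisson interval 3.45 to 15.8), CDDO-Im 1 held 22 (13.8 to 33.3) and CDDO-Im 2 held 27 (17.8 to 39.3). Both CDDO-Im libraries were higher than vehicle 2, although the intervals of vehicle 2 and CDDO-Im 1 overlap, and they cover counting error only. Vehicle 1 listed no peak there. Given the background around this region and the lowest −log10 p in its list, 4.04, vehicle 1 would have needed about 6 tags to reach the list, and peaks that are too short can also go unlisted. Its nearest listed summit was 284 kb from GPX4.

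Divided by the lowest background of each library (0.315 tags in vehicle 2, 0.332 in CDDO-Im 1 and 0.367 in CDDO-Im 2), a measure of depth, the GPX4 region had 25.4 in vehicle 2, 66.3 in CDDO-Im 1 and 73.5 in CDDO-Im 2. These were 2.61 and 2.89 times the vehicle 2 value. The mean of the CDDO-Im libraries was 1.46 above vehicle 2 on the log2 scale, or 2.75-fold, with an SD of 0.10 between the CDDO-Im libraries. No test was made, because vehicle 1 gave no value. The authors' fold enrichment of the peak was 5.83 for vehicle 2, 13.0 for CDDO-Im 1 and 15.9 for CDDO-Im 2. Its −log10 p was 8.16, 25.4 and 33.1 in the same order, and the −log10 q was 4.28, 20.8 and 28.6. By fold enrichment the peak ranked 3108 of 7308 in vehicle 2, 593 of 3882 in CDDO-Im 1 and 848 of 12244 in CDDO-Im 2, which describes its place in each list and, with lists of such different length, no change between them.

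The size of this difference was usual for regions with the same listing. Outside megabases with more than 20 joined regions, called dense here, 316 regions were listed in both CDDO-Im libraries and vehicle 2 but not in vehicle 1. In these the CDDO-Im level was 2.41 times that of vehicle 2 at the median (quartiles 1.82 and 3.00), and 313 of the 316 had a ratio above 1. The GPX4 ratio was exceeded by 108 of them. Listing in these 3 libraries was the choice that formed the set, so its median is a description. The megabases that hold the members had 0 to 10 joined regions each.

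**Figure D2:**
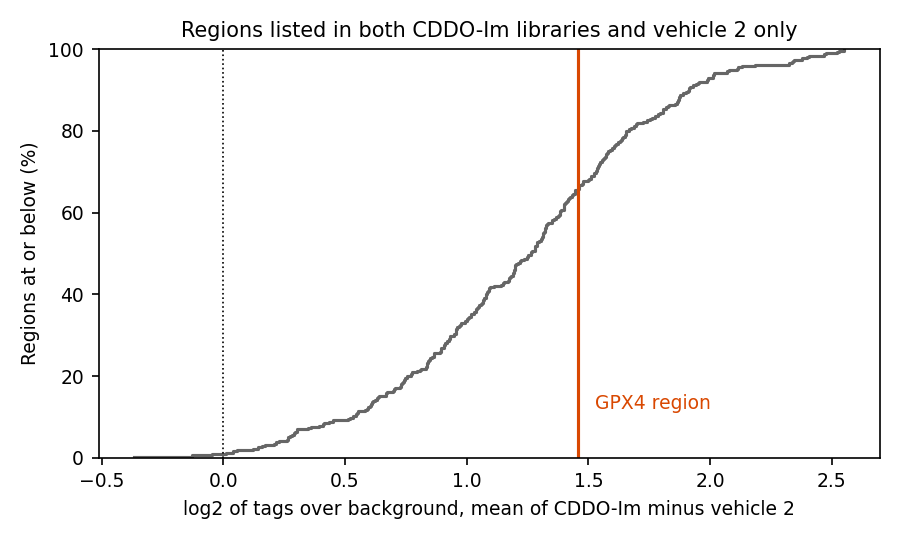
Cumulative share (%) of the 316 regions listed in both CDDO-Im libraries and vehicle 2 only, by the log2 of tags over background, mean of the CDDO-Im libraries minus vehicle 2. The orange line marks the GPX4 region at 1.46, above the median of 1.27, and the dotted line marks no difference.

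GPX2 encodes the gastrointestinal glutathione peroxidase, expressed mainly in epithelia. It lies on chromosome 14 from 64939158 to 64942745 on the minus strand. The 250 bases before its start are shown because they hold the only match among the members to the antioxidant response element core TGACNNNGC. Those of GPX4 are shown beside them because GPX4 has the shared NRF2 region. They hold no match, but they do not include that region, whose own sequence was not searched. Both stretches shown are RefSeq sequences on GRCh38.p14, written 5′ to 3′ on the strand of the gene. Capitals mark the match, which runs in the reverse direction, and no letter of GPX4 is in capitals because there is none.
GPX2 (chr14:64942746-64942995, minus strand): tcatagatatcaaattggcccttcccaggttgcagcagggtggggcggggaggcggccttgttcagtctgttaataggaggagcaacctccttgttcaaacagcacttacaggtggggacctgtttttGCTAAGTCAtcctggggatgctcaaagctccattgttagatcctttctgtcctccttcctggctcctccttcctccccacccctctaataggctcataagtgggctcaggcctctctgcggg
GPX4 (chr19:1103744-1103993, plus strand): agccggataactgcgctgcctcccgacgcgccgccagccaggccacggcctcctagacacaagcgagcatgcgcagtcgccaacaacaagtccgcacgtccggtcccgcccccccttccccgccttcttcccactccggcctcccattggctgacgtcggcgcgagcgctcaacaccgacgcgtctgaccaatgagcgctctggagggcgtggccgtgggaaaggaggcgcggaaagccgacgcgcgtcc

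The match in GPX2 lies at chr14:64942859-64942867, its first base 122 bases before the gene's start. No library listed a peak over it, and the nearest summit of any library was 11.9 kb from the gene, past its far end. Vehicle 1 and 2 had their nearest summits 268 and 397 kb away. Promoter windows of 250 bases before to 50 after a start were searched on both strands. Among all 35116 such windows 13.3% held TGACNNNGC, against 1 of the members' 12 windows, and 7.71% held the AP-1 core TGANTCA, against 0 of 12. A letter match is not a site, and its absence from a window says nothing of NRF2 elsewhere.

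No promoter window of any member was overlapped by a listed peak. This was the usual case in these data, as peaks of any library overlapped 75 of 34961 promoter windows on chromosomes 1 to 22 and X, or 0.215%. The windows of GPX4 and of GPX5 number 3 each and partly overlap, since these genes have several annotated starts.

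The 3 peaks near GPX2 each stood in 1 list and did not overlap. The strongest, in CDDO-Im 2 (chr14:64927091-64927319), held 11 tags (exact 95% Poisson interval 5.49 to 19.7) and lay inside CHURC1, a zinc finger gene, and the readthrough gene CHURC1-FNTB. Another in CDDO-Im 2 (chr14:64907127-64907303) held 5 tags and lay 31.9 kb from GPX2. The peak of CDDO-Im 1 (chr14:64900322-64900527) held 5 tags as well and lay 38.7 kb away. CHURC1-FNTB, CHURC1 and SPTB lay nearer than GPX2 to both peaks of 5 tags, CHURC1-FNTB at 7066 and 13898 bp. These tag counts are low, since a peak at the genome-wide background was listed from 4 tags in every library. In the order given, their fold enrichments were 7.96, 4.08 and 4.51, their −log10 p 12.4, 4.99 and 5.86, and their −log10 q 8.67, 2.00 and 2.29. Peaks with 5 tags seldom recurred in the other CDDO-Im list. Outside dense megabases, 13 of 263 such peaks of CDDO-Im 1 (4.94%) overlapped a CDDO-Im 2 peak, and 10 of 286 of CDDO-Im 2 (3.50%) overlapped a CDDO-Im 1 peak. Of 209 CDDO-Im 2 peaks with 11 tags, 73 (34.9%) overlapped a CDDO-Im 1 peak.

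GPX3 encodes the secreted plasma glutathione peroxidase. It lies on chromosome 5 from 151020591 to 151028988 on the plus strand, and its window held the peak with the most tags of the family. That peak (chr5:151063267-151063573) was listed in CDDO-Im 2 alone, with 29 tags (exact 95% Poisson interval 19.4 to 41.6), 78.9 over background. The authors' fold enrichment there was 17.5, the −log10 p 37.0 and the −log10 q 32.5. It was slightly above the 27 tags of the GPX4 peak in the same library, with intervals that overlap. Its summit was 34.4 kb past the far end of GPX3 and inside TNIP1, a gene for an inhibitor of NF-κB signalling on the minus strand.

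The absence of this peak from the other CDDO-Im list stood out from its peers. Outside dense megabases, CDDO-Im 2 had 606 peaks with at least 29 tags, and 598 of them (98.7%) overlapped a peak of CDDO-Im 1. The peak in the GPX3 window was among the 8 that did not. Of the 40 with exactly 29 tags, 37 did. CDDO-Im 1 would have needed about 5 tags there to reach its list, given the same relative background, and its nearest summit was 1186 kb from GPX3. Vehicle 1 and 2 also had none, with nearest summits at 1964 and 2710 kb. So GPX3 rests on 1 library, and why CDDO-Im 1 lists nothing there was not tested.

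**Figure D3:**
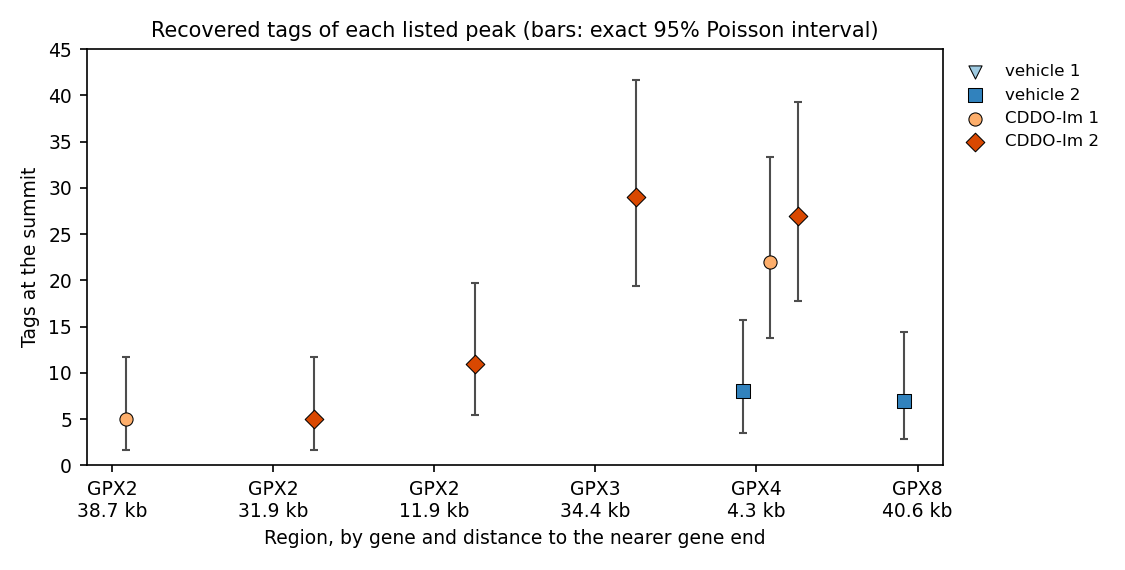
Tags at the summit (points) with exact 95% Poisson intervals (bars) for each of the 6 regions near glutathione peroxidase genes, labelled by gene and the distance to its nearer end. The GPX4 region has 3 libraries, 8 tags in vehicle 2 against 22 and 27 with CDDO-Im, the other regions have 1 each, and vehicle 1 has no point.

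GPX8 encodes a membrane protein of the endoplasmic reticulum with peroxidase activity. It lies on chromosome 5 from 55160171 to 55167297 on the plus strand, and it was the member with a vehicle peak and no CDDO-Im peak. The peak of vehicle 2 (chr5:55207831-55207999) held 7 tags (exact 95% Poisson interval 2.81 to 14.4), 40.6 kb past the far end of the gene. MCIDAS, CCNO and CDC20B lay nearer to it, MCIDAS at 11654 bp. It was 169 bp wide, the smallest width in its list, with a fold enrichment of 6.01, a −log10 p of 8.57 and a −log10 q of 4.64. The nearest summits in CDDO-Im 1 and 2 were 416 and 333 kb from GPX8. Outside dense megabases, 64 of 193 vehicle 2 peaks with 7 tags (33.2%) overlapped a CDDO-Im 1 peak, 76 (39.4%) a CDDO-Im 2 peak and 13 (6.74%) a vehicle 1 peak. Whether NRF2 at this site differed between the groups could not be tested, since 1 library gave a value.

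GPX1 encodes the cytosolic and mitochondrial enzyme that is the most widespread of the family. It lies on chromosome 3 from 49357176 to 49358353 and had no peak in its window. All 4 libraries had their nearest summit in the same region (chr3:49218571-49219029), between 138.377 and 138.449 kb from GPX1. That region lay inside IHO1, a meiotic recombination gene, with 3 protein-coding genes between it and GPX1, and it is outside the 50 kb limit. It held 12 and 15 tags in vehicle 1 and 2 against 31 and 73 in CDDO-Im 1 and 2. Over background these were 38.0 and 47.7 against 93.5 and 199, so the groups did not overlap. The CDDO-Im mean was 1.68 higher on the log2 scale, or 3.20-fold, with SDs of 0.23 in vehicle and 0.77 in CDDO-Im (two-sided exact permutation p = 0.333 for n = 2 and 2, which no difference could go under). This region was chosen after its values were seen, and the lists do not assign it to a gene.

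GPX5 and GPX6 are neighbours on chromosome 6, at 28525881 to 28534955 and 28503296 to 28515793, so their windows overlap and they are not independent. GPX5 encodes a peroxidase of the epididymis and GPX6 one of the olfactory epithelium. Their nearest summit was a peak of vehicle 1 with 5 tags, 80.8 kb from GPX6 and 103 kb from GPX5. This was the closest peak outside the 50 kb limit, and the GPX8 peak at 40.6 kb was the one just inside it. CDDO-Im 1 had a peak of 13 tags 146 kb from GPX6, and CDDO-Im 2 had none within 356 kb.

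GPX7, which encodes a peroxidase of the endoplasmic reticulum, lies on chromosome 1 from 52602371 to 52609051. It had the longest gap to a CDDO-Im 2 summit among the members, 717 kb, and that summit lay in a region of both CDDO-Im libraries inside LRP8, the gene of a receptor for selenoprotein P. The nearest summits of vehicle 1 and 2 were 659 and 2009 kb away.

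Across the family, the median distance to the nearest summit was 276 and 716 kb in vehicle 1 and 2, and 157 and 236 kb in CDDO-Im 1 and 2. The median distance over all protein-coding genes was 790 and 716 kb in vehicle 1 and 2, and 280 and 177 kb in CDDO-Im 1 and 2. Members nearer than that median numbered 7 and 4 of 8 in vehicle 1 and 2, and 5 and 4 of 8 in CDDO-Im 1 and 2. The count was highest in vehicle 1, where GPX3 was the only member beyond the median. GPX5 and GPX6 were both among the nearer members in vehicle 1 and in CDDO-Im 1, each time through the same peak.

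**Figure D4:**
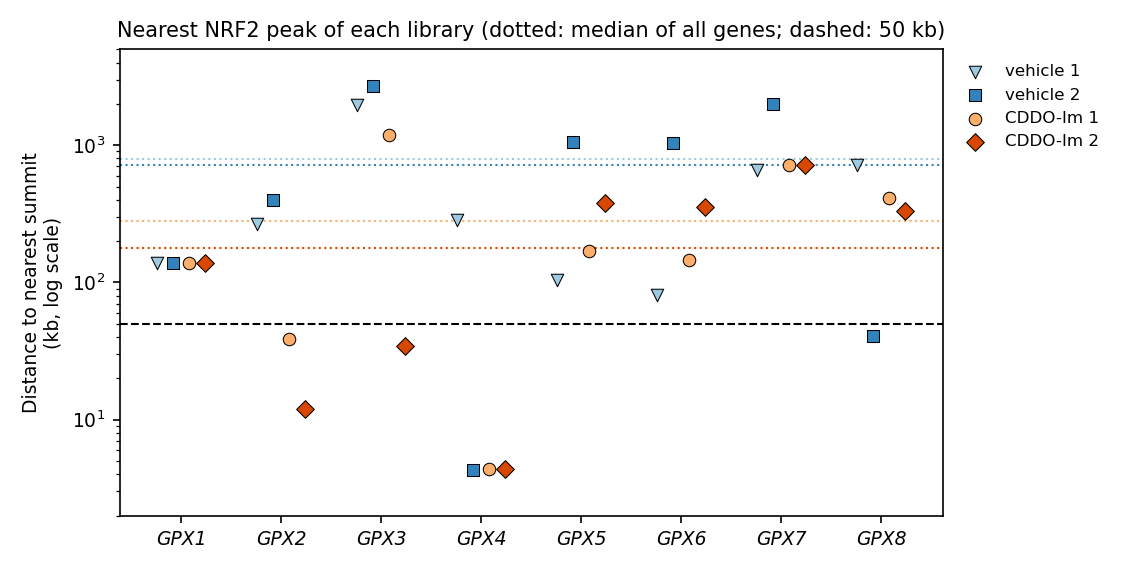
Distance (kb, log scale) from each glutathione peroxidase gene to the nearest summit of each library (points), with the 50 kb limit (dashed) and each library's median over all protein-coding genes (dotted). GPX4 is the only gene near 4 kb, and in 3 libraries, whereas all 4 libraries are at 138 kb for GPX1.

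Lists of genes of glutathione supply, selenium use, hydroperoxide reduction and lipid peroxidation were read in the same way. Of 69 genes in 5 lists, 17 (24.6%) had a region that both CDDO-Im libraries held, inside or within 50 kb, where 11.6% of all protein-coding genes had one. Their median length was 25.5 kb, so their windows were wider than those of the peroxidases. Regions of both vehicle libraries lay near 2 of the 69, where 1.81% of all genes had one. Within 10 kb the count was 10 of 69, against 5.78% of all genes. The lists hold known NRF2 targets and were drawn up with earlier results of these data known, so this is a description.

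Glutathione supply had 4 of 13 genes (30.8%). GCLM and GCLC, which together form the glutamate-cysteine ligase that starts glutathione synthesis, were listed in the same 3 libraries as GPX4. The GCLM region held 11 tags in vehicle 2 against 20 and 28 with CDDO-Im, and the GCLC region 9 against 20 and 18. GSS, which encodes the synthetase of the next step, and GGT7, of the glutamyl transferase family, shared 1 region (chr20:34899781-34900097). It held 12 tags in vehicle 2 against 13 and 24, and lay 28479 bp from GSS and 27097 bp from GGT7. GSS and GGT7 count as 2 genes but are 1 observation.

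The lists on selenium had shares nearer to the 11.6% of all genes. The list on selenocysteine machinery, which also holds the receptor gene LRP8, had 2 of 11 genes (18.2%), SECISBP2 and LRP8. Other selenoprotein genes had 3 of 19 (15.8%). The regions of these 5 genes were absent from both vehicle lists, which was also the more common case at large, where 1511 of the 2317 genes near a region of the CDDO-Im pair had one that neither vehicle library listed. SECISBP2, whose protein binds the selenocysteine insertion element of selenoprotein messages, held 24 and 36 tags in CDDO-Im 1 and 2 inside the gene, and LRP8 held 7 and 13. TXNRD3 held 17 and 36 tags inside the gene, TXNRD1 held 16 and 22 in the stronger of its 2 regions, and SELENOO held 9 and 19 at 30844 bp from the gene.

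Among other enzymes that reduce hydroperoxides, 3 of 13 genes (23.1%) had a region of the CDDO-Im pair. GSTA4, a transferase for lipid aldehydes, had one 48419 bp away in all 4 libraries, with 9 and 10 tags in vehicle against 22 and 60 with CDDO-Im. MGST3, a microsomal glutathione transferase with peroxidase activity, held 14 and 21 tags inside the gene in the CDDO-Im libraries alone. GSTA1 held 15 and 10 in a region 2677 bp from the gene, also in these libraries alone. Neither catalase nor any peroxiredoxin of the list had one. Genes of lipid peroxidation and ferroptosis had 5 of 13 (38.5%). POR, the electron donor of microsomal cytochromes P450, held 14 and 9 tags in vehicle against 51 and 85 with CDDO-Im inside the gene. ALOX12, a lipoxygenase gene, had a region 26565 bp away that the CDDO-Im libraries alone listed, at 20 and 28 tags, and DHODH, of the pyrimidine pathway, had 15 and 13 inside the gene. ALOX5 held 10 and 10, at 49848 bp, just inside the limit.

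**Figure D5:**
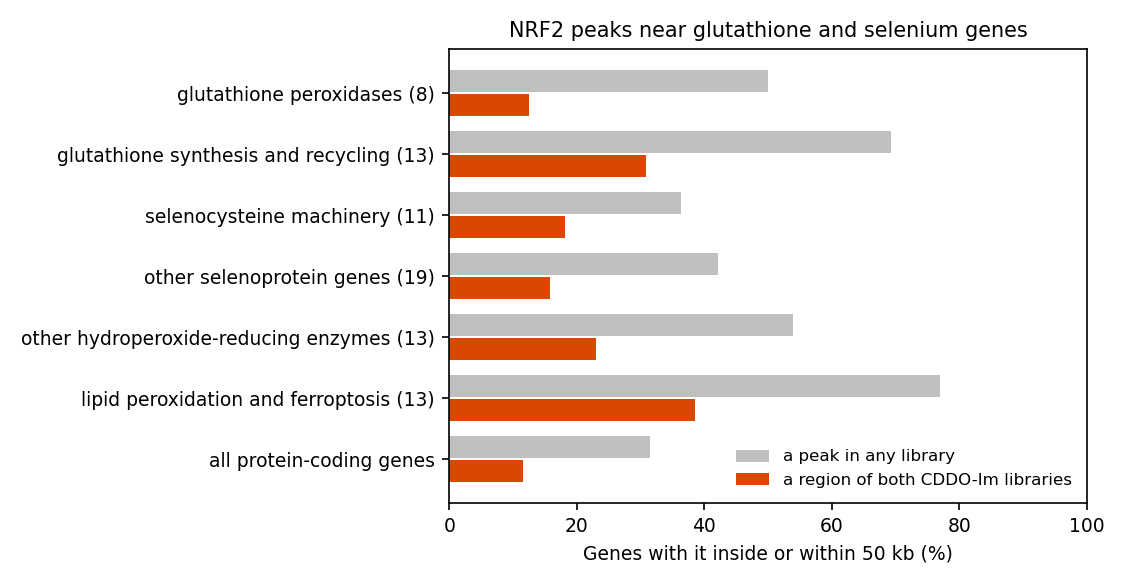
Share of genes (%) with a peak of any library (grey) and with a region held by both CDDO-Im libraries (orange) inside or within 50 kb, for the glutathione peroxidases, 5 lists of related genes (number of genes in brackets) and all protein-coding genes. The peroxidases stand at 12.5% for CDDO-Im regions, beside 11.6% of all genes.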

How the data were processed

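The submitters' processing notes name MACS2 2.2.7.1, BWA 0.7.17 and bcl2fastq 2.15.0, and the builds hg38 and GRCm38. The control, the threshold and the treatment of duplicates in peak calling were stated in none of the sources used here. The authors deposited 1 peak list per library, with a fold enrichment (ratio), a −log10 p and a −log10 q per peak, and a score that is 10 times the −log10 q. That fold served here to rank peaks inside 1 list and to recover tags. Chromosome names in the lists, alternate sequences included, are those of hg38, the build of the RefSeq tables used for genes and promoters.

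Tags were recovered as the whole number that fits both the fold, taken as tags plus 1 over background plus 1, and the p, taken as the Poisson tail above the tags, within 0.001 plus 0.0002 of the −log10 p. A match was found for 100% of peaks, a single one for 97.7% to 99.4%. Where several fitted, the closest was taken. On chromosomes 1 to 22 and X, overlapping peaks (1 bp or more) were joined. Library totals are not in the lists, so depth is known only through each library's lowest background, 0.315 to 0.367 tags, which also depends on fragment length. Single values were compared by permuting libraries (exact test, two-sided). All members are named, and of each further list up to 4 genes with a region held by both CDDO-Im libraries, taken in order of the lower of the CDDO-Im folds. Members and lists were chosen with earlier results of these data known. The protein part of the planned sequence description was not run. The recovery and the joining were tested on simulated data. Python 3.11.15 and SciPy 1.17.1 were used.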

Additional observations from a re-analysis of the deposited data

How the results depend on the processing

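The GPX4 region kept its listing in both CDDO-Im libraries with only peaks of a −log10 q of at least 5 or 10. It also did so with windows of 10 or 100 kb, and with summits within 200 bp in place of overlap. The count of members with a region of both vehicle libraries was 0 in all of these. A region of both CDDO-Im libraries lay near 1 of 8 members (12.5%) within 10 and 100 kb, against 5.78% and 18.8% of all genes. For the vehicle pair the shares of all genes were 0.81% and 3.21%, so 0 of 8 members tells little. Leaving out 1 library each gave 1 to 3 members with a CDDO-Im region and 0 to 2 with a vehicle region. For the group that loses a library, the rule loosens to a peak of the library left. By that rule the share of all genes was 16.4% for CDDO-Im 1 and 23.0% for CDDO-Im 2. For vehicle 1 and 2 the share was 6.66% and 7.53%. When only peaks of −log10 q 5 or more were kept, vehicle 1 and 2 had one near 0 members, CDDO-Im 1 near 1 and CDDO-Im 2 near 3. At 10 or more, CDDO-Im 2 had one near 2 members, and the counts of the other libraries stayed as at 5. Shares of all genes at these thresholds are not given here, so the counts do not compare the groups. Within 10 kb, 1 of 8 members (12.5%) had a peak in each of vehicle 2, CDDO-Im 1 and CDDO-Im 2, against 3.53%, 8.36% and 11.9% of all genes. Within 100 kb, 1 of 8 had a peak in vehicle 1 (GPX6), against 11.2%. The GPX4 difference of 1.46 (log2) was 1.61 without division by background and 1.63 with background over the shortest peak width, and 1.38 to 1.53 without either CDDO-Im library. The difference in peak numbers, 1.16, was 0.50 with a window of 10 kb and 0.66 with one of 100 kb, and it was above 1.16 with both stricter thresholds (exact permutation p between 0.333 and 1). Related genes with a CDDO-Im region were 10 of 69 within 10 kb, against 5.78% of all genes. With only peaks of −log10 q 5 or more they were 14 of 69, for which no share of all genes is given here.

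The labels do not say whether the replicate numbers pair the samples. Deviations of same-numbered libraries had a correlation of -0.04 over 230 regions of all 4 libraries outside dense megabases. With 2 libraries per group this cannot show whether same-numbered libraries shared a culture or a day. With the replicate number as a block, the difference in peak numbers was again 1.16 (exact permutation p = 0.5, the smallest the block allows is also 0.5), and the GPX4 difference, from the pair numbered 2 alone, was 1.53. Most peaks named here rest on few tags, so absence from a list does not show absence of NRF2.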
